A study of Mus musculus with 24 samples.

Results

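The ATP-binding cassette (ABC) transporters were examined in mouse liver ductal cells and their stromal neighbours. Members were all genes whose symbol consists of Abc, a subfamily letter from a to g, a number and at most one further letter. This rule took 50 of the 49568 genes in each table, of which 16 belong to subfamily A, 10 to B, 10 to C, 4 to D, 1 to E, 3 to F and 6 to G. The rule itself uses no measured value, although it was set with earlier results of these data known. Genes that reached 1 in 3 or more samples of the sorted fractions, or in 2 or more of the transwell samples, were tested, which kept 34 and 41 members.

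In the homeostasis experiment, cells were sorted from the livers of mice A, E and F, which were 12 weeks old and heterozygous for B6.129S4-Pdgfratm11(EGFP)Sor/J, a nuclear green reporter in one copy of Pdgfra, on a C57BL/6 background. Mice A and E were male and mouse F was female. Each mouse gave EpCAM+ ductal cells (DCs) and 3 stromal fractions, PDGFRα+SCA1+, PDGFRα+SCA1- and PDGFRα-SCA1+, and all fractions were negative for CD11b, CD45 and CD31. PDGFRα was read from the reporter and not from an antibody. In the transwell experiment, wild type C57BL/6 mice aged 8 to 12 weeks gave 6 groups of 2 samples. DCs were sequenced when sorted (day 0), after 15 days as organoids alone in expansion medium (EM), which contains growth factors, or after 15 days as organoids in mesenchymal medium without them, sharing a well with SCA1+ mesenchymal cells (SCA1+Msc) across a porous membrane. SCA1+Msc were sequenced at day 0, and at day 15 alone or co-cultured. EM and co-cultured organoids therefore differ in the medium as well as in the neighbouring cells. The SCA1+Msc of this experiment were sorted without PDGFRα. The paper's methods describe them as expanded on the bottom of the well beforehand, with the 15 days beside DCs coming after. DCs grew above the membrane in a drop of Matrigel, an extracellular matrix gel. The samples of a group were described as independent biological replicates, with DCs and SCA1+Msc taken from different littermates, a pair of mice for each, although labels do not tie a library to a mouse.

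ABC proteins bind ATP with a pair of nucleotide-binding domains and use its hydrolysis to move substrates across a membrane. In the liver, Abcb11 pumps bile acids, Abcb4 delivers phosphatidylcholine, Abcc2 exports conjugates and Abcg5 with Abcg8 exports sterols across the canalicular membrane of the hepatocyte into bile. Cholangiocytes, the epithelial cells of the bile duct, line the stream that results. Other members work elsewhere: Abcc8 and Abcc9 are regulatory subunits of potassium channels, subfamily D serves peroxisomes and lysosomes, and the E and F proteins have no membrane part and act on ribosomes.

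The nucleotide-binding domains of the family contain a Walker A loop, which holds the phosphates of ATP. Coding bases around the first such loop are shown for 6 members whose level separates the cell populations, because they show how near the paralogs Abcb1a and Abcb1b are to each other compared with the rest. The loop is in capitals, sequences are from GENCODE M21 transcripts on GRCm38, and each is given 5′ to 3′ on the coding strand.
Abcb1a: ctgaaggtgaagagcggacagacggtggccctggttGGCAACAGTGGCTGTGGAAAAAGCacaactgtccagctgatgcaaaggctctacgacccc
Abcb1b: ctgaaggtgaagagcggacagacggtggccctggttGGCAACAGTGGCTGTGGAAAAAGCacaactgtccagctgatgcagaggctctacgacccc
Abcc3: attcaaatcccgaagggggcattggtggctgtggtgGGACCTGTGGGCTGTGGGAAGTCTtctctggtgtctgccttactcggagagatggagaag
Abcc9: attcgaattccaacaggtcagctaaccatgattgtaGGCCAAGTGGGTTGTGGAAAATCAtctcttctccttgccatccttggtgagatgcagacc
Abca8a: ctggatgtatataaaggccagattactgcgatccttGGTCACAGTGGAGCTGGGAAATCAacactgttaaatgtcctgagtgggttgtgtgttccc
Abcg2: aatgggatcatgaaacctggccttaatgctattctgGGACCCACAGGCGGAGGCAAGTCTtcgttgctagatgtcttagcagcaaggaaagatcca

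The windows lie in exon 12 of Abcb1a (chr5:8702171-8702266, plus strand), exon 12 of Abcb1b (chr5:8824491-8824586, plus strand), exon 16 of Abcc3 (chr11:94363721-94363816, minus strand), exons 17 and 18 of Abcc9 (chr6:142652553-142656618, minus strand, intron included), exon 12 of Abca8a (chr11:110071427-110071522, minus strand) and exons 2 to 4 of Abcg2 (chr6:58655855-58664477, plus strand, introns included). Over these 96 bases Abcb1a and Abcb1b differed at a single base, A81G, counted from 1 at the 5′ end of the window with the Abcb1a base first. Abcb1a and Abcb8, from the same subfamily, differed at 37 of 96. Of all 50-base words in the Abcb1a transcripts, 22.5% were also found in transcripts of other genes, 889 of them in Abcb1b, and for Abcb1b the share was 12.8%. Reads were 50 bases long and reads of low mapping quality were dropped, so the levels of this pair rest on the parts in which they differ. The share was also high for Abcb6 at 50% (with the predicted gene Gm29253), Abca3 at 10.1% and Abcb10 at 8.27%, and it was at most 3.48% for every other member.

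Depth, recovered from the steps between low values, lay between 19.6 and 25.7 M reads in homeostasis samples and between 19.3 and 28.0 M in transwell samples. The sorted fractions carried their markers: the 5 ductal markers summed to 54236 or more in DCs, the 5 mesenchymal markers to 23498 or more in both PDGFRα+ fractions, and Pdgfra was under 0.1 in DCs and PDGFRα-SCA1+ cells. All 5 endothelial markers were present in PDGFRα-SCA1+ cells, which had been sorted as CD31 negative, with sums of 2318 to 2532 against 2.54 to 19.4 in the other fractions. The PDGFRα-SCA1+ library of mouse E also held ductal markers at 3706, against 79.2 and 314 in the other two libraries of that fraction. Hepatocyte markers (6 genes) summed to 5786 to 6923 in DCs, 2216 to 6290 in PDGFRα-SCA1+ cells and 186 to 1741 in the PDGFRα+ fractions. At day 0 of the transwell experiment they summed to 4214 and 5356 in DCs and to 21338 and 16871 in SCA1+Msc. The PDGFRα+SCA1- libraries were the least alike, with Spearman correlations of 0.714 to 0.772 over the genes tested, and 16 members had no read in any of these 3 libraries, compared with 9 in DCs.

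The leading transporters of DCs were not those of PDGFRα+ cells, whereas both PDGFRα+ fractions shared theirs. Values of different genes were ranked on TPM, after undoing the reuse of column totals described in the methods. In DCs the soluble factor Abcf2 led at 150 TPM, and Abcc4 at 78.0, Abcc3 at 67.6 and Abcb1a at 55.7 were the highest membrane transporters. In PDGFRα+SCA1+ cells Abcc9 at 386.0 and Abca8a at 354.0 TPM stood above every other member, and PDGFRα+SCA1- cells had the same pair in front with 444.0 and 130.0. In PDGFRα-SCA1+ cells the leaders were Abcg1 at 83.6, Abca1 at 80.1, Abcc4 at 79.5 and Abcg2 at 73.1, whose ranges over mice overlapped. Summed over all members, the deposited values reached 854 to 1004 in DCs and 778 to 937 in PDGFRα-SCA1+ cells, below the 1214 to 1409 of PDGFRα+SCA1+ and the 1065 to 1156 of PDGFRα+SCA1- cells.

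**Figure D1:**
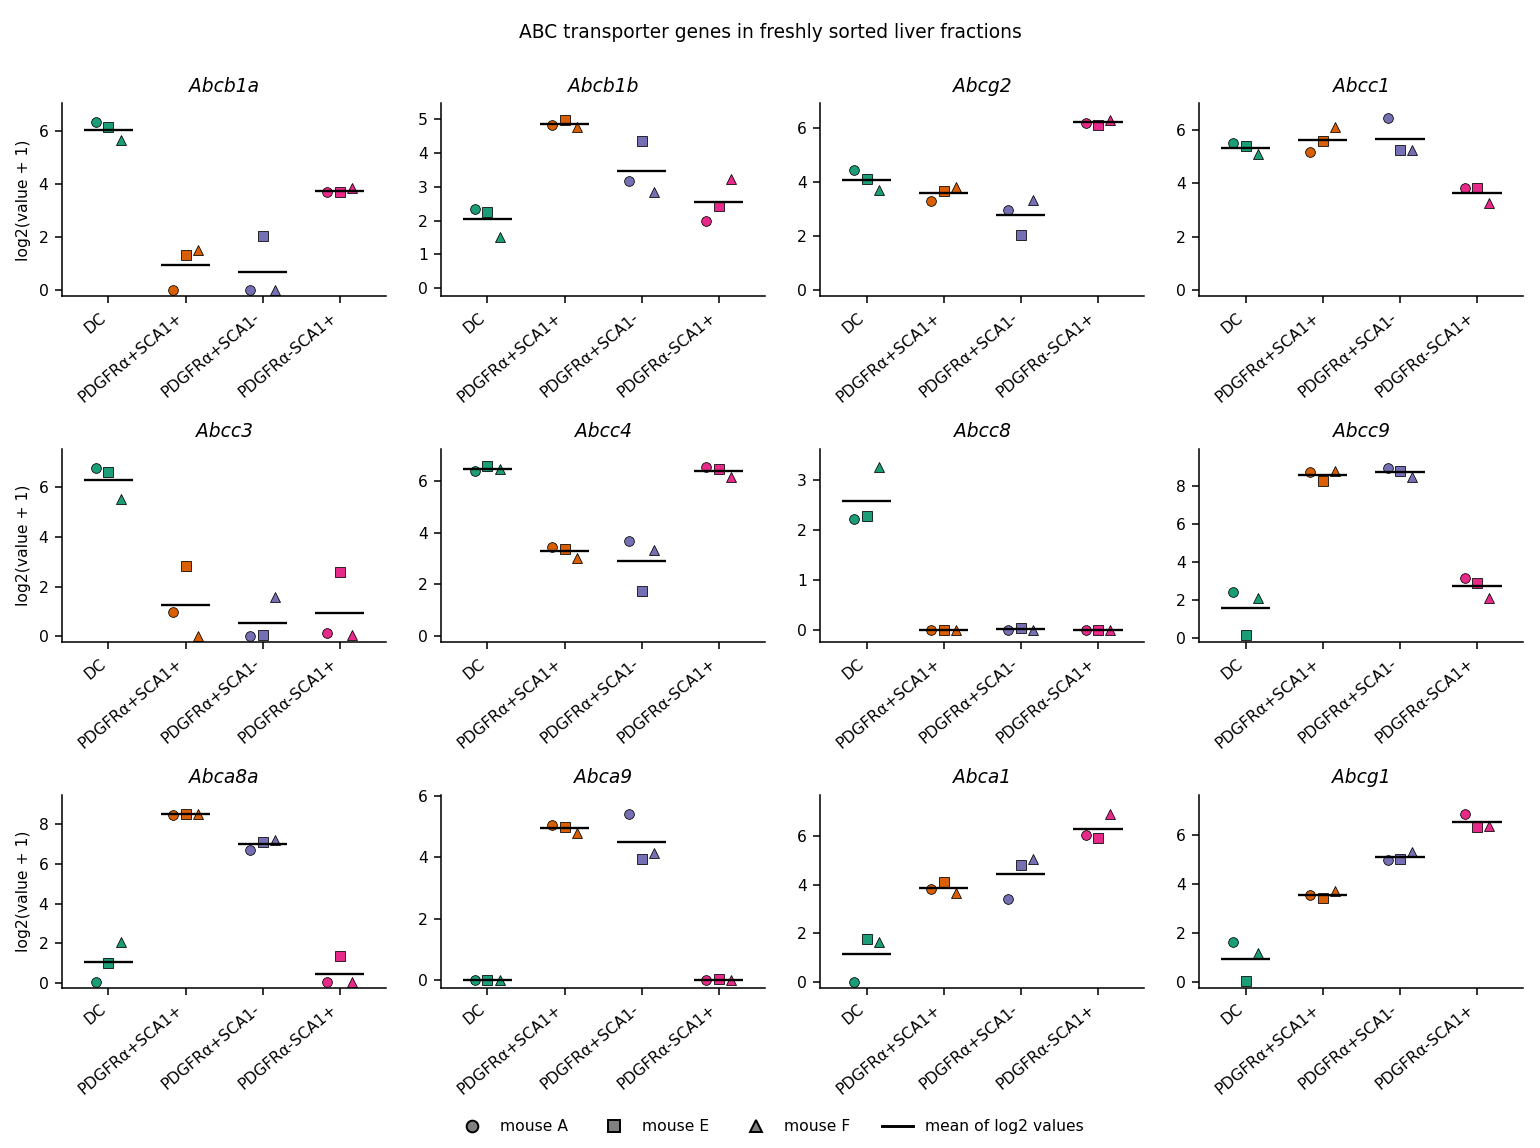
Deposited values of 12 ABC genes as log2(value + 1) in the 4 sorted fractions, one point per mouse (circle A, square E, triangle F) with the mean of the log2 values as a line. Abcb1a is highest in DCs, Abcc9, Abca8a and Abca9 in both PDGFRα+ fractions, and Abcg2, Abca1 and Abcg1 in PDGFRα-SCA1+ cells, whereas Abcc4 is high in DCs and PDGFRα-SCA1+ cells alike.

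Against DCs, PDGFRα+SCA1+ cells had 6 members higher and 5 lower out of 34 tested (limma, Benjamini-Hochberg adjusted p under 0.05). This is 17.6% and 14.7%, beside 9.85% and 14.0% of all 17028 genes. Under quantile normalization the split was 8 higher and 4 lower. PDGFRα+SCA1- cells had 5 higher and 8 lower (14.7% and 23.5%, beside 9.98% and 18.9% of all genes). With quantile normalization this became 8 and 6, and 8 and 5 with the reuse of totals undone, so the balance of directions in this fraction depended on scaling. In PDGFRα-SCA1+ cells 6 members were higher and 6 lower than in DCs, 17.6% each way beside 11.5% and 11.3%. PDGFRα-SCA1+ against PDGFRα+SCA1+ cells gave 5 higher and 6 lower (14.7% and 17.6%, beside 10.9% and 7.86%). The 4 comparisons share samples and are given side by side. Median log2 changes of the members were -0.21, -0.50, -0.20 and -0.02 in this order, next to -0.28, -0.47, -0.04 and 0.25 for all genes. Quantile normalization moved the median of all genes by up to 0.34, in PDGFRα+SCA1- against DCs.

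**Figure D2:**
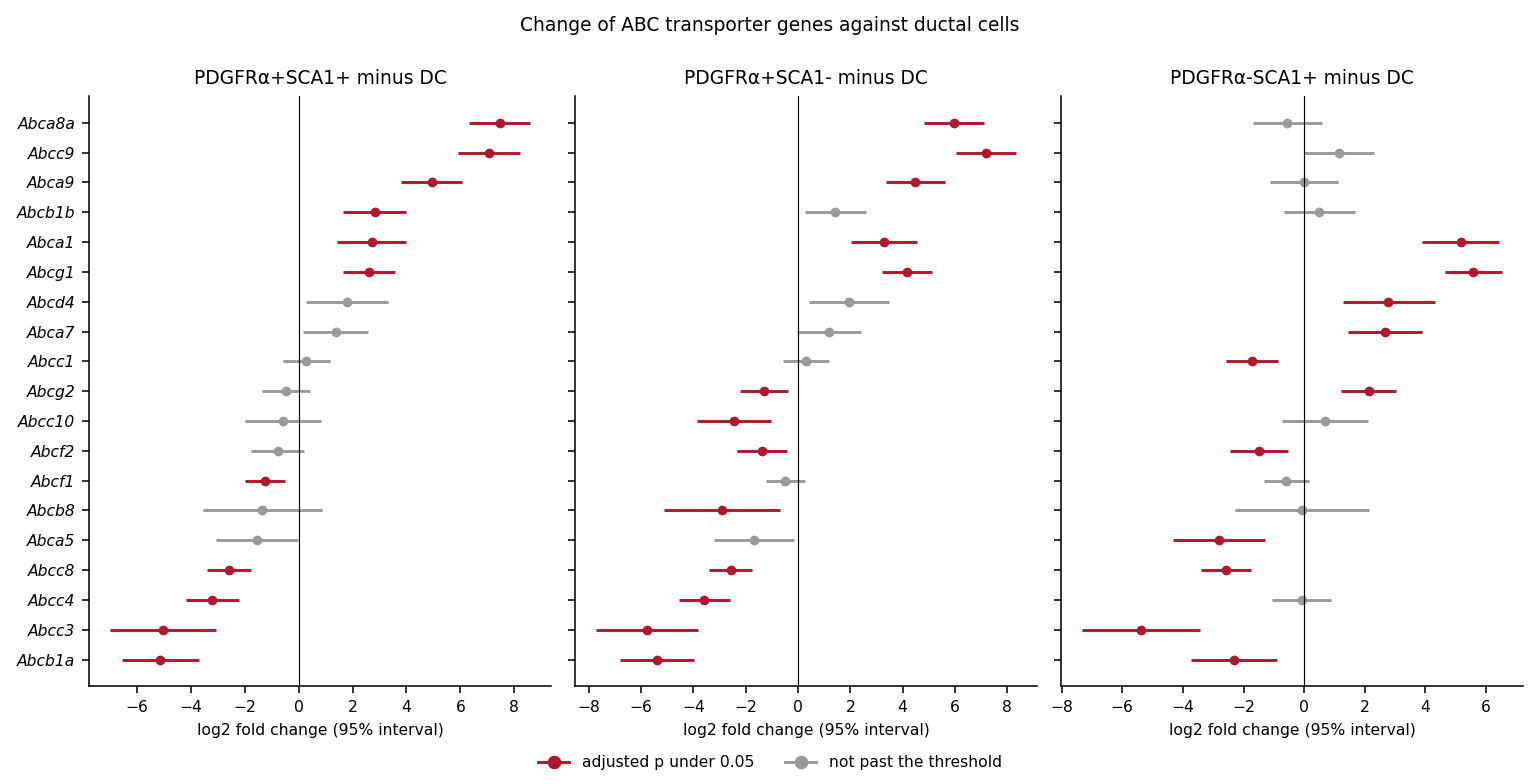
Log2 fold change with its 95% interval for members called in at least one comparison of a stromal fraction with DCs (horizontal axis, one row per gene, n = 3 mice per group), red where the adjusted p was under 0.05. Abca8a, Abcc9 and Abca9 lie far to the right in both PDGFRα+ fractions and near 0 in PDGFRα-SCA1+ cells, and Abcc3, Abcb1a and Abcc8 lie to the left in all 3.

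Multidrug efflux pumps divided between the populations. Abcb1a (chr5:8660077-8748575) and Abcb1b (chr5:8798147-8866315) are the mouse genes for P-glycoprotein, which expels lipophilic drugs, and stand next to each other with Abcb4 in 299 kb. Abcb1a measured 80.5, 71.3 and 50.6 in the DCs of mice A, E and F. In PDGFRα+SCA1+ cells it was 0, 1.5 and 1.87, in PDGFRα+SCA1- cells 0, 3.14 and 0, and in PDGFRα-SCA1+ cells 12.1, 12.1 and 13.5. DCs stood above every other library without overlap, and PDGFRα-SCA1+ cells above both PDGFRα+ fractions. The log2 change against DCs was -5.13 ± 0.65 (SE, limma adjusted p = 9.1e-05) in PDGFRα+SCA1+ and -5.39 ± 0.65 (adjusted p = 5.9e-05) in PDGFRα+SCA1- cells, that is, means 60.2 and 64.4 times lower. In PDGFRα-SCA1+ cells it was -2.31 ± 0.65 (adjusted p = 0.0212). That call was lost with a pseudocount of 0.1 (adjusted p = 0.29) and when the library of mouse A or E was left out of either group (up to 0.0852).

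Abcb1b had the other pattern. It measured 27.5, 30.8 and 26.4 in PDGFRα+SCA1+ cells, 4.11, 3.76 and 1.88 in DCs, 8.00, 19.3 and 6.22 in PDGFRα+SCA1- cells and 2.93, 4.34 and 8.30 in PDGFRα-SCA1+ cells. Its log2 change in PDGFRα+SCA1+ cells was 2.82 ± 0.54 against DCs (limma adjusted p = 0.00203), and PDGFRα-SCA1+ cells were lower than PDGFRα+SCA1+ by -2.33 ± 0.54 (adjusted p = 0.00889). The reads behind these values were 1130 to 1627 per PDGFRα+SCA1+ library for Abcb1b, and 1835 to 2366 per DC library for Abcb1a.

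Abcg2, the breast cancer resistance protein that exports urate, porphyrins and drugs, was highest in PDGFRα-SCA1+ cells with 71.8, 68.8 and 78.6. DCs had 20.7, 16.1 and 12.0, PDGFRα+SCA1+ cells 8.81, 11.8 and 13.2, and PDGFRα+SCA1- cells 6.78, 3.11 and 9.15. PDGFRα-SCA1+ cells were higher than DCs by 2.13 ± 0.41 (limma adjusted p = 0.00231) and higher than PDGFRα+SCA1+ cells by 2.61 ± 0.41 (adjusted p = 0.00075). Abcc1, which exports glutathione conjugates and leukotrienes, was lower in PDGFRα-SCA1+ cells (13.1, 13.2 and 8.50) than in DCs (45.3, 41.3 and 33.3), by -1.71 ± 0.40 (adjusted p = 0.00747), and than in PDGFRα+SCA1+ cells (35.0, 47.2 and 68.4), by -2.00 ± 0.40 (adjusted p = 0.00377).

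Among exporters of conjugates and nucleotides from subfamily C, Abcc3 was higher in DCs than in every stromal fraction, and Abcc4 was higher in DCs than in both PDGFRα+ fractions. Of the 7 genes in this list 5 passed the filter, and 0 were higher than in DCs. PDGFRα+SCA1+ cells had 2 called lower (Abcc3 and Abcc4), PDGFRα-SCA1+ cells 2 (Abcc1 and Abcc3), and PDGFRα+SCA1- cells 3 (Abcc3, Abcc4 and Abcc10). Of all genes 14.0%, 11.3% and 18.9% were called lower in this order, and 9.85%, 11.5% and 9.98% higher. Abcc3 (chr11:94343295-94392997), a basolateral exporter of bile acids and glucuronides, had 109, 97.6 and 44.7 in DCs. In 9 stromal libraries it ranged from 0 to 6.15. The value of 5.05 among PDGFRα-SCA1+ cells came from the mouse E library with ductal markers. The highest, 6.15, came from the PDGFRα+SCA1+ library of mouse E, where these markers summed to 89.1. The part of ductal RNA in these values was not tested. Log2 changes against DCs were -5.04 ± 0.90 (limma adjusted p = 0.00127) in PDGFRα+SCA1+, -5.77 ± 0.90 (adjusted p = 0.00044) in PDGFRα+SCA1- and -5.38 ± 0.90 (adjusted p = 0.0008) in PDGFRα-SCA1+ cells. Abcc4, an exporter of cyclic nucleotides and prostanoids, had overlapping values in PDGFRα-SCA1+ cells (93.5, 89.2 and 71.4) and DCs (83.1, 96.5 and 88.0). PDGFRα+SCA1+ cells had 7.23 to 9.89 and PDGFRα+SCA1- cells 2.32 to 11.8, a change against DCs of -3.21 ± 0.45 (adjusted p = 0.00022) and -3.58 ± 0.45 (adjusted p = 8.7e-05). In the PDGFRα-SCA1+ libraries of mice A, E and F the ductal markers summed to 79.2, 3706 and 314, beside Abcc4 values of 93.5, 89.2 and 71.4. The part of ductal RNA in these Abcc4 values was not tested. Abcc10, a broad exporter of lipophilic anions, had 5.88, 4.92 and 3.02 in DCs and 5.03, 21.1 and 4.04 in PDGFRα-SCA1+ cells, which overlapped, and no value above 0 in PDGFRα+SCA1- cells, where it was called lower. Abcc5, an exporter of cyclic nucleotides found in most tissues, passed no test in any of these comparisons, with 5.18 to 26.3 over the 12 libraries.

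The sulphonylurea receptors, which sense nucleotides for ATP-sensitive potassium channels, went to opposite lineages. Abcc9 (SUR2, chr6:142587862-142702315) measured 421, 309 and 438 in PDGFRα+SCA1+ cells and 490, 445 and 357 in PDGFRα+SCA1- cells. DCs had 4.35, 0.0813 and 3.32, and PDGFRα-SCA1+ cells 7.77, 6.32 and 3.23. The change against DCs was 7.05 ± 0.53 (limma adjusted p = 1.5e-06) in the first and 7.19 ± 0.53 (adjusted p = 1.2e-06) in the second, with means 151 and 167 times higher. The gene of the pore it regulates, Kcnj8, averaged 224 and 181 in PDGFRα+ cells with and without SCA1. It averaged 47.1 in PDGFRα-SCA1+ cells and 0.0664 in DCs. Smooth muscle and pericyte markers, 5 of 5 present, gave sums from 1676 to 2956 for PDGFRα+SCA1- cells and from 210 to 240 for PDGFRα+SCA1+ cells. The Abcc9 ranges of the 2 fractions overlapped, and the part of smooth muscle or pericyte RNA in them was not tested.

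Abcc8 (SUR1), the receptor of the pancreatic beta cell, was read in DCs with 3.66, 3.82 and 8.53. In the other 9 libraries it had no read, apart from 0.0189 in the PDGFRα+SCA1- cells of mouse E. On TPM, DCs were at least 77.2-fold higher than PDGFRα+SCA1+ and PDGFRα-SCA1+ cells, counting 3 reads per library as the floor. Kcnj11, which encodes its pore, had 3.94 to 5.20 in DCs and 0 in every PDGFRα+ library.

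Among the other lipid transporters of subfamily A, Abca8a and Abca9 were higher in both PDGFRα+ fractions than in DCs. They were the only called members of the 7 tested, out of 10 listed, in these 2 comparisons. Abca5, Abca6, Abca9, Abca8a and Abca8b lie in one row on chromosome 11 (109932190 to 110337716, 406 kb, all on the minus strand), and little is known of their substrates. Abca8a had 353, 364 and 360 in PDGFRα+SCA1+ cells and 102, 138 and 145 in PDGFRα+SCA1- cells, against 0.0482, 1.01 and 3.12 in DCs and 0.0241, 1.57 and 0.0272 in PDGFRα-SCA1+ cells. Log2 changes against DCs were 7.45 ± 0.52 (limma adjusted p = 8.4e-07) and 5.96 ± 0.52 (adjusted p = 5e-06). Its neighbour Abca9, separated from it by a gap of 4770 bases, had 31.8, 30.9 and 26.6 in PDGFRα+SCA1+ and 41.8, 14.3 and 16.7 in PDGFRα+SCA1- cells, and at most 0.0226 in DCs and PDGFRα-SCA1+ cells. Here the changes were 4.93 ± 0.52 (adjusted p = 2.1e-05) and 4.49 ± 0.52 (adjusted p = 4.3e-05). The row did not move as one: Abca8b reached only 5.44 to 9.45 in PDGFRα+SCA1+ cells and 0 to 7.54 in PDGFRα+SCA1- cells, and Abca5 was highest in DCs with 7.78 to 10.1 and lower in PDGFRα-SCA1+ cells by -2.81 ± 0.70 (adjusted p = 0.0112). Abca6 stayed at or below 2.96 in DCs and 2.27 in PDGFRα+SCA1+ cells and was spread from 0 to 16.9 among PDGFRα+SCA1- libraries. Abca3, a phospholipid transporter of lung surfactant, had 3.79 to 5.59 in PDGFRα+SCA1+ cells and 11 to 21.7 in DCs. Abca2 averaged 22.8 in DCs and 19.0 and 17.1 in PDGFRα+ cells with and without SCA1. Neither was called against DCs.

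Abca1 and Abcg1, exporters of cholesterol, had their lowest level in DCs. Of the 4 genes in the list of cholesterol and phospholipid exporters, these 2 were called higher than in DCs in each PDGFRα+ fraction and 3 in PDGFRα-SCA1+ cells. Abca1, which loads cholesterol onto lipid-poor apolipoprotein A-I, measured 0.0133, 2.41 and 2.17 in DCs, 13.2, 16.3 and 11.6 in PDGFRα+SCA1+, 9.66, 27.4 and 32.8 in PDGFRα+SCA1- and 65.9, 60.3 and 120 in PDGFRα-SCA1+ cells. Abcg1, which passes cholesterol to mature lipoproteins, followed the same order with 2.11, 0.0419 and 1.26, then 10.8, 9.76 and 12.2, then 31.1, 31.8 and 39.1, then 117, 80.1 and 83.4. For Abcg1 neighbouring groups did not overlap, whereas for Abca1 the 2 PDGFRα+ fractions did. Against DCs the log2 changes of Abca1 were 2.71 ± 0.58 (limma adjusted p = 0.00468), 3.29 ± 0.58 (adjusted p = 0.00117) and 5.16 ± 0.58 (adjusted p = 4.1e-05), and those of Abcg1 were 2.61 ± 0.44 (adjusted p = 0.00081), 4.16 ± 0.44 (adjusted p = 2e-05) and 5.58 ± 0.44 (adjusted p = 2.4e-06). Mylip, a gene that sterol-activated liver X receptors switch on like Abca1 and Abcg1, averaged 4.30 in DCs and 215 in PDGFRα-SCA1+ cells, with 93.7 for PDGFRα+SCA1+ and 61.9 for PDGFRα+SCA1- cells between them. Other targets of these receptors went the other way: Srebf1 averaged 51.3 in DCs and 19.2 in PDGFRα-SCA1+ cells (adjusted p = 0.0199), and Lpcat3 averaged 101 in DCs and 30 in PDGFRα+SCA1- cells (adjusted p = 0.0093). Abca7, a relative of Abca1, was higher in PDGFRα-SCA1+ cells (10.7 to 27.6) than in DCs (at most 4.31), by 2.67 ± 0.56 (adjusted p = 0.00378). Abcg4, a relative of Abcg1, was not called, with 0.609, 0 and 0 in DCs, 12.1, 2.38 and 4.61 in PDGFRα+SCA1+ cells and 0 in all PDGFRα-SCA1+ libraries. Macrophage markers, also from cells that export cholesterol, summed to 81.8 to 259 in PDGFRα-SCA1+ cells and 54.6 to 108 in DCs, and their part in these levels was not tested.

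Transporters of organelles differed less. Among mitochondrial members 3 of 4 passed the filter. Only Abcb8, the ATP-binding part of a mitochondrial potassium channel, was called, in PDGFRα+SCA1- cells (0, 0 and 8.81, against 14.4 to 16.1 in DCs, limma adjusted p = 0.0488). In this comparison 18.9% of all genes were called lower. The Abcb8 call was lost in 4 of 6 other processing settings and on leaving out any one of 8 of the 12 libraries (adjusted p up to 0.134). Abcd4, which brings vitamin B12 out of lysosomes, had 42.2, 22.9 and 43.1 in PDGFRα-SCA1+ cells against 3.5, 1.01 and 14.4 in DCs. Its log2 change was 2.78 ± 0.69 (adjusted p = 0.0113), and the call was lost when only these groups were fitted (adjusted p = 0.0543) and without the DC library of mouse E (0.0516). The ribosome factors Abce1, Abcf1, Abcf2 and Abcf3 were read in every library, with the lowest single value at 20.7. Abcf1 was lower in PDGFRα+SCA1+ cells than in DCs by -1.23 ± 0.34 (adjusted p = 0.0198), which was lost under quantile normalization (0.0571) and without the library of mouse A or E of either group (up to 0.0888).

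No member passed the test between PDGFRα+SCA1+ and PDGFRα+SCA1- cells. With limma 0 of 34 members passed the adjusted threshold, beside 0.435% of all genes called higher and 0.153% called lower. An unadjusted limma p under 0.05 was found for 5 of the 34, beside 1985 of all 17028 genes. The 5 were Abca8a (359 against 129, log2 difference 1.49, 95% interval 0.35 to 2.63), Abcb1b (28.2 against 11.2, 1.41, 0.24 to 2.58), Abca8b (7.41 against 2.72, 1.78, 0.11 to 3.45), Abcc10 (2.99 against 0, 1.88, 0.46 to 3.29) and Abcg1 (10.9 against 34.0, -1.55, -2.50 to -0.60), with adjusted p from 0.173 to 0.397. The upper bounds show that differences of over 2 on the log2 scale were compatible with these data. With a pseudocount of 0.1 a single member, Abcc10, was called.

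Before culture, SCA1+Msc and DCs of the transwell experiment differed in 27 of 41 members, 16 higher and 11 lower in SCA1+Msc (39.0% and 26.8%, beside 21.4% and 24.7% of all 18136 genes). The 16 include Abcb11, Abcg5, Abcg8 and Abcc6, whose levels are given further below. Hepatocyte markers summed to 21338 and 16871 in SCA1+Msc and to 4214 and 5356 in DCs, and their part in this count was not tested. When only these 4 libraries were fitted 15 were called. Abcc9 (194 and 170 TPM in SCA1+Msc, 0.763 and 2.25 in DCs) and Abca8a (170 and 191, against 1.37 and 0.433) led with log2 changes of 6.25 ± 0.30 (limma adjusted p = 4.6e-07) and 6.62 ± 0.40 (adjusted p = 1.6e-06). Abca9 was 16.9 and 24.7 TPM and had no read in DCs, a difference of at least 335-fold. On the ductal side Abcc4 (67.4 and 69.1 in DCs, 16 and 13.8 in SCA1+Msc), Abcc3 (45.6 and 43.1, against 7.90 and 9.95) and Abca5 (4.37 and 4.37, against 0.511 and 0.438) changed by -2.12 ± 0.26 (adjusted p = 0.00013), -2.20 ± 0.38 (adjusted p = 0.00116) and -1.87 ± 0.31 (adjusted p = 0.0008). Abcb1a (55.7 and 56.7, against 2.28 and 13.8) changed by -3.04 ± 0.63 (adjusted p = 0.00313), and this call was lost when only the 4 libraries were fitted (0.0967). The 4 ribosome factors were all lower in SCA1+Msc, Abcf1 by -1.41 ± 0.11 (adjusted p = 8e-06), although Abcf3 lost its call without the second library of either group (up to 0.0803) or with only the 4 libraries (0.106). The second SCA1+Msc library, with 13.8 for Abcb1a, also had the higher ductal marker sum of the pair (2417 against 1156). The part of ductal RNA in this Abcb1a value was not tested.

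**Figure D3:**
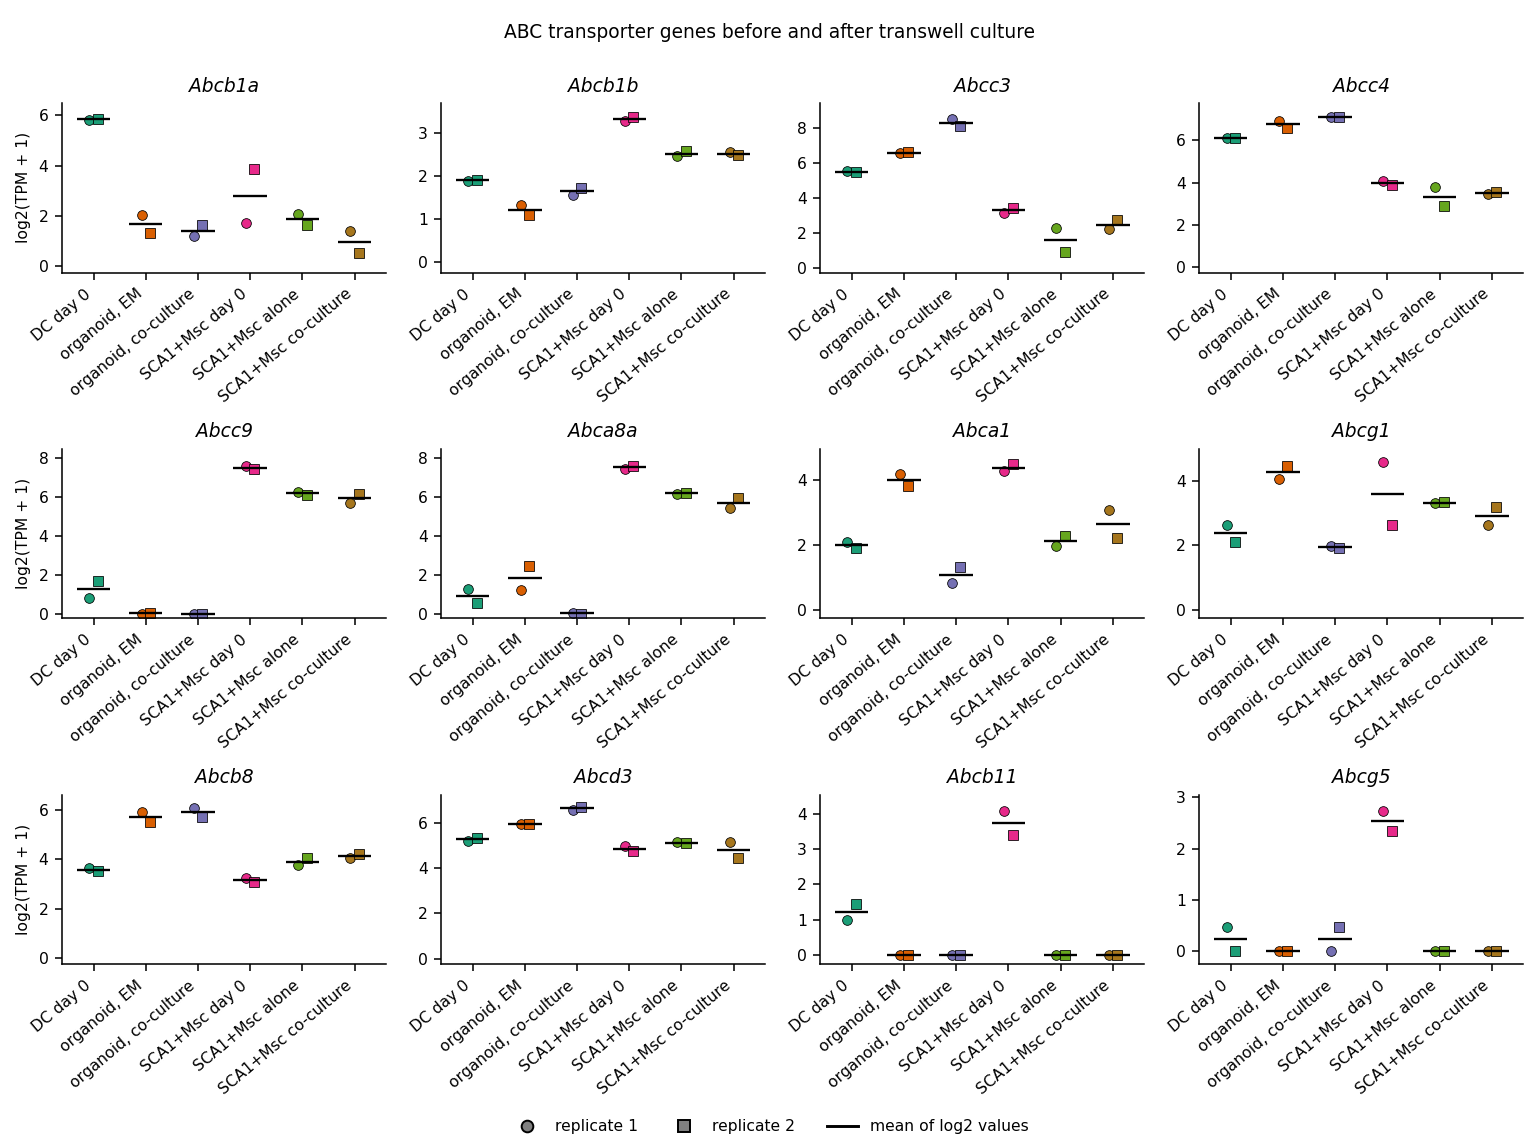
TPM of 12 ABC genes as log2(TPM + 1) in the 6 transwell groups, one point per sample (circle replicate 1, square replicate 2) with the mean of the log2 values as a line. Abcb1a falls from 56.2 TPM in DCs to about 2 in organoids, Abcc3 is highest in co-cultured organoids, Abca1 and Abcg1 are high in EM organoids and low in co-cultured ones, and Abcb11 and Abcg5 are highest in SCA1+Msc at day 0.

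In organoids the RNA for P-glycoprotein fell, and in co-culture Abcc3 rose. EM organoids against DCs had 9 members higher and 10 lower of 41 (22.0% and 24.4%, beside 27.1% and 17.2% of all genes), and co-cultured organoids 10 higher and 10 lower (24.4% each way, beside 23.2% and 19.1%). These splits moved with scaling: to 4 and 11 for EM organoids under quantile normalization and 10 and 7 on RPKM as deposited, and to 12 and 5 for co-cultured organoids on RPKM. Both comparisons share the DC libraries. Without the second DC library 11 and 12 members were called, 12 in EM organoids without their second library, and 13 in co-cultured organoids without their first.

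Abcb1a measured 55.7 and 56.7 TPM in DCs, 3.07 and 1.49 in EM organoids and 1.28 and 2.15 in co-cultured organoids. The log2 change was -4.17 ± 0.63 (limma adjusted p = 0.00053) and -4.41 ± 0.63 (adjusted p = 0.00041), means 24.7 and 32.7 times lower. Abcb1b was not called, with 2.70 and 2.76 in DCs, 1.49 and 1.12 in EM and 1.94 and 2.31 in co-cultured organoids. Abcc1 fell from 54.4 and 46.2 to 17.4 and 18.6 in EM (-1.43 ± 0.17, adjusted p = 0.0001) and to 28.6 and 24.5 in co-culture (-0.90 ± 0.17, adjusted p = 0.00189). Abcg2 was 11.7 and 11.5, then 9.82 and 10.2, then 14.2 and 18.3, and passed no test. Abcc8 had 8.49 and 2.75 TPM in DCs and no read in EM organoids, which is at least 90.7-fold lower, and 0 and 2.08 in co-cultured organoids. Cftr, the chloride channel of the family whose symbol the rule does not take, went with Abcb1a: it averaged 47.3 TPM in DCs, 3.11 in EM and 3.36 in co-cultured organoids (log2 change -3.57 ± 0.35, adjusted p = 3.7e-05, and -3.47 ± 0.35, adjusted p = 4.8e-05). Ductal markers stayed between 36169 and 47574 in organoids, compared with 49720 and 51709 in DCs.

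Abcc3 rose from 45.6 and 43.1 TPM in DCs to 361 and 271 in co-cultured organoids, with 94.3 and 97.4 in EM organoids. The 3 groups did not overlap. The change from DCs to co-cultured organoids was 2.79 ± 0.38 (limma adjusted p = 0.00033), and in co-cultured organoids it was the highest of all members at 316 TPM. From DCs to EM organoids the change of 1.10 ± 0.38 (adjusted p = 0.0425) was lost in 4 other settings and on leaving out any one of 10 libraries (up to 0.16). Between the organoid groups Abcc3 was higher in co-culture by 1.70 ± 0.38 (adjusted p = 0.0184), and this was lost without any 1 of the 4 libraries compared (up to 0.145), with a pseudocount of 0.1 and when only these groups were fitted. Abcc4 was 67.4 and 69.1 in DCs, 119 and 96.0 in EM and 136 and 137 in co-cultured organoids. It rose in co-culture by 0.99 ± 0.26 (adjusted p = 0.0124), which was lost without any 1 of the 4 libraries compared (up to 0.065). Nr1i2, a xenobiotic receptor known to act on Abcc3, averaged 2.85, 1.21 and 6.76 in the 3 groups, and Nr1h4, the bile acid receptor FXR, 13.6, 9.96 and 37.5. The latter was higher in co-culture than in EM by 1.81 ± 0.25 (adjusted p = 0.00169), whereas Nr1i2 passed neither test of co-cultured organoids (adjusted p = 0.0612 against EM and 0.203 against DCs). Ahr, the aryl hydrocarbon receptor, was lower in co-culture than in EM (53.5 against 140, -1.36 ± 0.21, adjusted p = 0.00304), and Nfe2l2, a regulator of antioxidant genes, averaged 345 and 476 and was not called (adjusted p = 0.103).

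Abca1 and Abcg1 were lower in co-cultured than in EM organoids. Co-cultured against EM organoids had 1 member higher and 3 lower of 41 (2.44% and 7.32%, beside 5.73% and 7.21% of all genes), Abcc3 above and Abca1, Abcg1 and Abca8a below. The numbers were 3 and 2 under quantile normalization and 3 and 3 on RPKM, and between 1 and 2 members in all remained without any 1 of the 4 libraries compared. Abca1 was 3.30 and 2.75 TPM in DCs, 17.5 and 13.2 in EM and 0.776 and 1.54 in co-cultured organoids. It rose in EM by 2.02 ± 0.35 (limma adjusted p = 0.00118), and co-cultured organoids lay below EM organoids by -2.93 ± 0.35 (adjusted p = 0.00061, and 0.0576 when only these groups were fitted), a ratio of means of 13.3. Abcg1 had 5.20 and 3.34, then 15.5 and 21.1, then 2.97 and 2.77, with a difference of -2.30 ± 0.53 (adjusted p = 0.0196) between the organoids that was lost without any 1 of the 4 libraries compared (up to 0.13). Genes tied to sterol export that were also lower in co-cultured than in EM organoids were Mylip (0.563 against 6.30 on average, -2.23 ± 0.42, adjusted p = 0.00752) and Apoe, the apolipoprotein that takes up exported cholesterol (70.5 against 1259, -4.13 ± 0.12, adjusted p = 3e-07). Lpcat3 and Srebf1, which the same receptors also switch on, averaged 80.1, 332 and 247, and 64.6, 154 and 107, in DCs, EM and co-cultured organoids. Their lower means in co-culture than in EM were not called (adjusted p = 0.0834 and 0.0664), and both were above DCs in each kind of organoid. The call for Abca8a rests on 1.30 and 4.44 against 0.0178 and 0 TPM and was lost when only these groups were fitted (0.175) and on leaving out the second EM library or either co-cultured library (up to 0.0993).

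Some organelle transporters rose in both kinds of organoid. Called higher than in DCs were 2 of 4 mitochondrial and 1 of 2 lysosomal members tested in each kind. Of the peroxisomal members it was 1 of 3 in EM and 2 of 3 in co-culture. Beside these stand 27.1% of all genes in EM and 23.2% in co-culture. The lysosomal Abcb9 was not called, with 2.37 and 3.28 TPM in DCs, 1.28 and 1.82 in EM and 0 and 1.61 in co-cultured organoids. Abcb8 went from 11.4 and 10.4 TPM to 59.0 and 44.9 in EM (2.14 ± 0.22, limma adjusted p = 4.2e-05) and 66.6 and 51.6 in co-culture (2.33 ± 0.22, adjusted p = 2.8e-05). Abcb10, a mitochondrial transporter needed for haem synthesis, went from 3.99 and 6.46 to 17.7 and 15.8 (1.54 ± 0.31, adjusted p = 0.00306) and 20.3 and 19.0 (1.76 ± 0.31, adjusted p = 0.00155). Fech, the last enzyme of haem synthesis and a partner of Abcb10, averaged 27.1 in DCs, 133 in EM and 93.7 in co-cultured organoids. Abcd3, a peroxisomal importer of bile acid precursors and branched fatty acids, had 35.9 and 39.0, then 60.1 and 59.8, then 94.3 and 103, and the rise in co-culture was 1.38 ± 0.21 (adjusted p = 0.00063). Abcd4 had 4.46 and 6.26, then 18.7 and 19.3, then 26.0 and 31.0, a rise in co-culture of 2.22 ± 0.48 (adjusted p = 0.00452). The mitochondrial Abcb6, at 0.284 to 1.38 over these 6 libraries, was not called. Abce1, at 104 and 100 in DCs, was called lower in EM organoids at 63.6 and 57.7. Abcf2, at 221 and 271 in DCs, fell to 141 and 149 in co-cultured organoids (-0.75 ± 0.14, adjusted p = 0.00231). Proliferation markers (4 genes) summed to 68.1 to 87.5 in organoids and 10.8 and 11 in DCs, and their part in these changes was not tested.

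More members were lower than higher in SCA1+Msc after culture. SCA1+Msc alone at day 15 against day 0 had 5 members higher and 12 lower (12.2% and 29.3%, beside 27.4% and 17.5% of all genes). Among the 12 were Abcb11, Abcc6, Abcg5, Abcc2 and Abcg8, which the next paragraph gives beside hepatocyte markers. Without the second library of SCA1+Msc alone 11 were called, and 10 when only the 4 libraries were fitted. Abcc9 and Abca8a were not among the 8 largest decreases and are given because of their high level, a choice made after their values were seen. Abcc9 went from 194 and 170 to 76.4 and 67.2 TPM (-1.33 ± 0.30, limma adjusted p = 0.00598), while Kcnj8 averaged 77.1 before and 167 after (log2 difference 1.13 ± 0.50, adjusted p = 0.098). Abca8a went from 170 and 191 to 69.5 and 72.8 (-1.33 ± 0.40, adjusted p = 0.0225), which was lost with a pseudocount of 0.1 (0.111) and without any 1 of the 4 libraries compared (up to 0.0967). Abca1 went from 18.5 and 21.6 to 2.98 and 3.84 (-2.26 ± 0.35, adjusted p = 0.00061). Abcf1 rose from 50.4 and 44.0 to 70.4 and 74.3 (0.61 ± 0.11, adjusted p = 0.00172), and Abca4, a retinoid transporter of photoreceptors, from 0.0676 and 0.0139 to 1.49 and 2.02 (1.40 ± 0.34, adjusted p = 0.00871). Smooth muscle and pericyte markers summed to 716 and 883 at day 0 and to 3147 and 3444 in SCA1+Msc alone, and hepatic stellate markers to 188 and 184 and then 87.6 and 98.1. Their part in the Abcc9 change was not tested. In bulk samples such as these, fewer cells of a type and less RNA per cell cannot be told apart.

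The hepatocyte exporters were read in SCA1+Msc at day 0. Abcb11, the bile salt export pump, had 15.8 and 9.46 TPM there, Abcg5 5.69 and 4.12, Abcg8 2.30 and 2.85, Abcc2 5.85 and 1.33, and Abcc6, a liver transporter for ATP release, 4.54 and 11. In DCs at day 0 the same genes ranged from 0 to 7.21. In all 4 libraries of SCA1+Msc at day 15 none of these 5 had a read, which makes day 0 at least 130-fold higher for Abcb11, 88.8-fold for Abcc6, 61.1-fold for Abcc2, 26.5-fold for Abcg5 and 19.2-fold for Abcg8 than SCA1+Msc alone. The call for Abcc2 was lost in 4 other settings and without the first SCA1+Msc library of day 0 or either library of SCA1+Msc alone (limma adjusted p up to 0.196). Hepatocyte markers, 6 of 6 present, summed to 21338 and 16871 in SCA1+Msc at day 0, and to 8.64 and 14.3 in SCA1+Msc alone, where Cyp3a11 was under 1. Slc10a1, the hepatocyte uptake carrier for bile acids, averaged 113 TPM at day 0 and 0.0406 in SCA1+Msc alone. The part of hepatocyte RNA in these levels was not tested. Abcg5 and Abcg8 overlap on opposite strands of chromosome 17 over 6710 bases, and the libraries do not keep the strand, so reads in that stretch cannot be assigned to one of them. In the homeostasis experiment neither had a read. Abcb11 had 0, 7.74 and 2.71 in the PDGFRα-SCA1+ libraries of mice A, E and F, whose hepatocyte markers summed to 2839, 6290 and 2216.

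**Figure D4:**
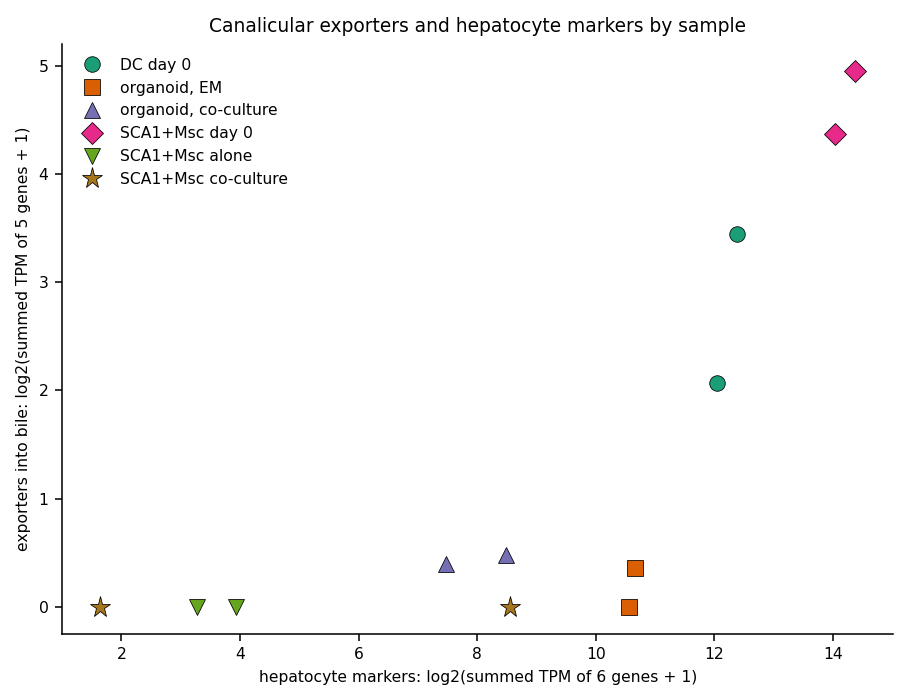
Summed TPM of the 5 canalicular exporters Abcb11, Abcb4, Abcc2, Abcg5 and Abcg8 (vertical axis) against summed TPM of 6 hepatocyte markers (horizontal axis), both as log2(sum + 1), for the 12 transwell samples with one symbol per group. The 2 SCA1+Msc samples of day 0 lie at the top right, the DCs of day 0 next to them, and all cultured samples lie at or near 0 on the vertical axis.

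Between SCA1+Msc co-cultured with organoids and SCA1+Msc alone no member passed the adjusted threshold, with 2 samples per group. With limma 0 of 41 members were called, beside 0.0937% of all genes called higher and 0.0331% lower. An unadjusted limma p under 0.05 was found for 2 of the 41, beside 1263 of all 18136 genes. The 2 were Abcf2 (96.5 against 122, log2 difference -0.33, 95% interval -0.65 to -0.01) and Abcc3 (4.69 against 2.39, 0.89, 0.02 to 1.75). For Abcc9 (51.0 and 70.7 in co-culture, 76.4 and 67.2 alone) and Abca8a (41.0 and 59.1, against 69.5 and 72.8) the levels were below those of day 0 in both.

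The change in culture differed between ductal and stromal cells for 17 of 41 members, 9 with a more positive change in ductal cells and 8 with a more negative one (22.0% and 19.5%, beside 14.5% and 12.3% of all genes, limma interaction). On RPKM the split was 11 and 6. Abcb11, Abcg5 and Abcg8, among the 9, had no read in EM organoids or in SCA1+Msc alone, so their difference is that of day 0. Abcc8, among the 8, had no read in any SCA1+Msc library, so its difference is the ductal change. The media differ between the lineages, and so do the earlier expansion of SCA1+Msc and the Matrigel around DCs. None of these can be told apart from the lineage. Abca1 had the largest difference, 4.27 ± 0.49 (adjusted p = 0.00032), since it rose in EM organoids and fell in SCA1+Msc alone. Abcc3 differed by 2.80 ± 0.54 (adjusted p = 0.00507), Abcb8 by 1.42 ± 0.30 (adjusted p = 0.00811), Abca5 by -2.31 ± 0.43 (adjusted p = 0.0043) and Abcc1 by -1.09 ± 0.23 (adjusted p = 0.00806).

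**Figure D5:**
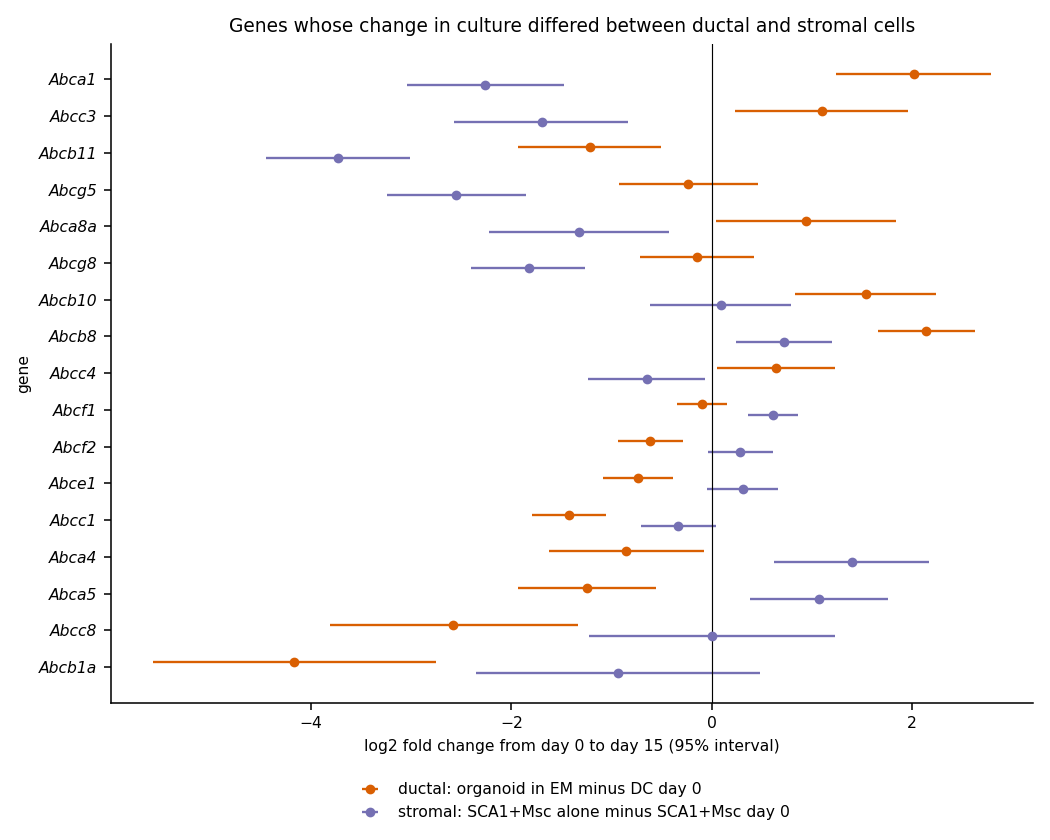
Log2 fold change from day 0 to day 15 with its 95% interval for the 17 members whose change differed between the lineages, in ductal cells (EM organoids minus DCs at day 0, orange) and stromal cells (SCA1+Msc alone minus SCA1+Msc at day 0, purple), n = 2 samples per group. Abca1 and Abcc3 lie on opposite sides of 0 in the lineages, and Abcb1a and Abcc8 lie far to the left in ductal cells.

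Of 27 related genes that the symbol rule does not take (other ABC proteins, channel and organelle partners, sterol and xenobiotic receptors, bile acid carriers), 24 could be tested in sorted fractions and 25 in transwell samples. Against DCs, 3 were higher and 5 lower in PDGFRα+SCA1+ (beside 9.85% and 14.0% of all genes), 4 and 6 in PDGFRα+SCA1- (beside 9.98% and 18.9%) and 8 and 5 in PDGFRα-SCA1+ cells (beside 11.5% and 11.3%). The last included Tap1 and Tap2, ABC proteins that load peptides for antigen presentation, with averages of 132 and 115 in PDGFRα-SCA1+ cells and 21.4 and 45.7 in DCs (limma adjusted p = 0.00192 and 0.0344). Slc10a2, the apical bile acid uptake carrier of cholangiocytes, averaged 27.0 in DCs and at most 0.287 in the stromal fractions. In organoids 6 related genes were higher and 8 lower in EM, and 6 and 11 in co-culture, than in DCs, beside 27.1% and 17.2% of all genes in EM and 23.2% and 19.1% in co-culture. Tap1 and Tap2 were among the lower ones in both, Tap2 with 61 in DCs, 11.5 in EM and 19.9 in co-cultured organoids.

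By Pearson correlation of log2 values over the 12 samples of the homeostasis experiment, the genes most like Abcb1a were Psmd8 (0.9891), Cd2ap (0.9807) and Hs3st1 (0.9792), those most like Abcg2 were Cracr2b (0.9865), Slc27a3 (0.9790) and Tnfrsf22 (0.9668), and those most like Abcc9 were Rarres2 (0.9924), Aebp1 (0.9861) and Pcolce (0.9838). In the transwell experiment Abcc9 was most like Abi3bp (0.9971), Lrat (0.9961) and C6 (0.9947), Abcb1a like Ighj4 (0.9715), Gm10916 (0.9651) and Mgam (0.9596), and Abcg2 like Mecom (0.8996). The values describe the order of the groups, since samples of one group lie close together and share their cell type.

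Members with little or no signal complete the account. Abca12, Abca17 and Abcb5 stayed under 3 reads in all 24 samples, and Abca13, Abca14, Abca15, Abca16 and Abcc12 passed the filter in neither experiment. Abca12, Abca13 and Abca14 are known from skin, bone marrow and testis. Abcd2, a peroxisomal transporter, had no read in DCs of either experiment and 3.46 to 6.56 TPM in SCA1+Msc at day 15. Abcg4, a cholesterol exporter of the brain, had 1.74 and 1.84 TPM in DCs at day 0 and no read in any organoid, a difference of at least 18.6-fold in both. Abcg3, a rodent gene, had 1.28 and 5.59 TPM in SCA1+Msc at day 0 and no read in SCA1+Msc alone.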

How the data were processed

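RNA was measured in 12 sorted samples (homeostasis, n = 3 per group) and 12 transwell samples (n = 2 per group) by Smart-seq2 and Nextera XT libraries, which do not keep the strand, read from one end. The authors aligned reads to GRCm38 with STAR 2.5.0a, removed those with a mapping quality under 20 with samtools and counted them per Ensembl 87 gene with featureCounts. The homeostasis values, deposited under the name TPM, were handled as a score, because each gene had been divided by the total of a sample that cycled through the 12 columns down the table. Factors between the deposited score and TPM were 0.722 to 1.386. The transwell values were deposited by the authors as RPKM and were scaled here to TPM by the sum of each sample.

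Tests used limma 3.58.1 in R 4.3.3 on log2(value + 1) with a mean for each group, all 12 samples of an experiment fitted together, a trend of variance with level, two-sided p-values and Benjamini-Hochberg adjustment over all genes tested, with a threshold of 0.05. Only genes that reached 1 in 3 (homeostasis) or 2 (transwell) samples were tested. Fold changes on this scale understate the change of low genes. Since low values were whole multiples of 1 read for 92.9% and 93.1% of values up to 20 reads (tolerance 0.02 read), depth could be recovered, with medians of 22.4 M and 22.8 M reads, and 3 reads served as the floor, which covers counting error only. Same-lettered homeostasis samples came from the same mouse (mean correlations of residuals 0.0287, 0.0237 and 0.0596 for mice A, E and F). The fit was tested on simulated data. Alternatives were a pseudocount of 0.1, no filter, quantile normalization, a replicate block, undoing the reuse of totals or RPKM as deposited, fitting only the groups compared, and leaving out each library. Any member could be named with its levels. Fold change, SE and adjusted p were given for at most the 8 called members with the largest change in each direction of a comparison. Abcc9 and Abca8a in SCA1+Msc alone against day 0 were the exception, chosen after their values were seen. Related genes came from a list by role. The members and lists were chosen with earlier results of these data known. A total of 4 columns of population means was not used, and 0 columns were without a sample. Single values of some members are not reported here, though counts over members include them. Sequences came from GENCODE M21.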

Additional observations from a re-analysis of the deposited data

Results flagged for a closer look

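In 17 members the change from day 0 to day 15 differed between ductal cells (EM organoids against DCs) and stromal cells (SCA1+Msc alone against SCA1+Msc at day 0), by a test of the difference itself (limma interaction, Benjamini-Hochberg, n = 2 per group). The log2 differences, ductal minus stromal, were 4.27 for Abca1, 2.80 for Abcc3, 2.5 for Abcb11, 2.31 for Abcg5, 2.27 for Abca8a, 1.68 for Abcg8, 1.45 for Abcb10, 1.42 for Abcb8 and 1.29 for Abcc4. On the other side they were -0.71 for Abcf1, -0.90 for Abcf2, -1.04 for Abce1, -1.09 for Abcc1, -2.25 for Abca4, -2.31 for Abca5, -2.58 for Abcc8 and -3.23 for Abcb1a. The medium, the earlier expansion of SCA1+Msc and the Matrigel around DCs differed between the lineages and cannot be told apart from the cell type. For Abcb11, Abcg5 and Abcg8 the difference came with hepatocyte markers of 21338 and 16871 in SCA1+Msc at day 0 and 14.3 and 8.64 afterwards, and the part of these markers was not tested. These genes had no read in EM organoids or in SCA1+Msc alone, so their difference restates the levels of day 0. Abcc8 had no read in any SCA1+Msc library, so its difference restates the ductal change. Abcb1a (adjusted p up to 0.0899), Abcc8 (0.112), Abcb10 (0.125), Abcc4 (0.102) and Abca8a (0.0658) lost the call when certain single libraries were left out.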

How the results depend on the processing

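No called member changed its direction under any alternative. Of 47 calls in the homeostasis experiment 35 held under every alternative, and of 104 in the transwell experiment 51. Fitting only the groups compared changed the number of members called most: 18 in place of 11 for PDGFRα+SCA1+ against DCs, 15 in place of 27 for SCA1+Msc against DCs at day 0, 1 in place of 4 for co-cultured against EM organoids (none of the 4 among them), and 10 in place of 17 for SCA1+Msc alone against day 0. In the last 3, each fit held 4 libraries. A pseudocount of 0.1 gave 1 call in place of 0 for PDGFRα+SCA1+ against PDGFRα+SCA1-. With the replicate block, 13 members were called against DCs in PDGFRα+SCA1+ cells (in place of 11), 14 in PDGFRα+SCA1- (in place of 13) and 12 in PDGFRα-SCA1+ cells as before, and it ended 4 transwell calls. In the transwell experiment samples share only a number (mean correlation of residuals 0.00504 over 15 pairs, -0.0188 to 0.0295), and the block moved 27 calls to 29 for SCA1+Msc against DCs and 19 to 18 for EM organoids. Leaving out single libraries gave 10 to 15 calls for PDGFRα+SCA1+, 10 to 14 for PDGFRα+SCA1- and 9 to 14 for PDGFRα-SCA1+ against DCs, 10 to 13 for PDGFRα-SCA1+ against PDGFRα+SCA1+, and 0 to 0 between the PDGFRα+ fractions. In the transwell experiment the ranges were 20 to 28 for SCA1+Msc against DCs, 11 to 20 for EM and 12 to 20 for co-cultured organoids against DCs, 1 to 5 between the organoids, 11 to 21 for SCA1+Msc alone against day 0, 0 to 0 for SCA1+Msc co-cultured against alone, and 13 to 19 for the difference between lineages. The causes were not tested.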
